A study of Homo sapiens with 9 samples.

Results

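The genes described here are 10 leukocyte and myeloid signalling genes in K562 cells: PTPRC, CD53, DOCK2, HCLS1, SPI1, CSF3R, DOK2, LYZ, C5AR1 and FYN. They are 10 of the 63677 genes counted. They were chosen by their values in these same libraries, as leukocyte genes that seemed to switch between clones or between genotypes. Their levels in the clones, and their differences between genotypes or between clones, are therefore descriptions and carry no test. K562 is an erythroleukaemia line derived from chronic myeloid leukaemia, and the labels name bone marrow for it. The 9 libraries are the parental line with wild-type SRSF2, 4 clones with wild-type SRSF2 (W19, W33, W36 and W42, called WT clones) and 4 clones with mutant SRSF2 P95H (P9, P15, P22 and P38, called P95H clones). All 8 clones were obtained by CRISPR. SRSF2 encodes a splicing factor, and the series asks how its mutation alters splicing, whereas the counts used here give gene levels. Each clone or line is 1 library of polyadenylated RNA, and neither the origin of the clones in separate edits nor the number of mutated SRSF2 copies is stated in the labels.

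PTPRC encodes CD45, the transmembrane phosphatase that marks most nucleated blood cells and sets the activity of Src-family kinases such as FYN by removing an inhibitory phosphate. SPI1 encodes PU.1, an ETS-family transcription factor required for myeloid and B-lymphoid development that binds purine-rich sites with a GGAA core and acts against GATA1 in red cell precursors. The other members act further along: CD53 is a leukocyte tetraspanin, CSF3R and C5AR1 are receptors, DOCK2, HCLS1 and DOK2 carry or restrain receptor signals, and LYZ encodes lysozyme. K562 cells express an erythroid programme, and markers of both erythroid and megakaryocytic cells are known in this line.

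Promoter windows of 4 members are shown because, among the members in the promoter table, their genes differed most in a single clone: PTPRC and HCLS1 downwards, CD53 and DOCK2 upwards. Each is the 250 bases before a RefSeq start site on GRCh38.p14, 5′ to 3′ on the gene's strand. Capitals mark GAGGAA or its reverse complement TTCCTC, a short purine-rich word of the kind that PU.1 binds. Other words with the GGAA core, such as those in the PTPRC and HCLS1 windows, are not marked.
PTPRC, chr1:198638790-198639039, plus strand: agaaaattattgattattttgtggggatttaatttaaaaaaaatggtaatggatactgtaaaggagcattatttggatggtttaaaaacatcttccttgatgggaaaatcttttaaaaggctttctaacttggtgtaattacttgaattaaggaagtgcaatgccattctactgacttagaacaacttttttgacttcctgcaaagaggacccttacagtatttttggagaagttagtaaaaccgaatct
HCLS1, chr3:121660904-121661153, minus strand: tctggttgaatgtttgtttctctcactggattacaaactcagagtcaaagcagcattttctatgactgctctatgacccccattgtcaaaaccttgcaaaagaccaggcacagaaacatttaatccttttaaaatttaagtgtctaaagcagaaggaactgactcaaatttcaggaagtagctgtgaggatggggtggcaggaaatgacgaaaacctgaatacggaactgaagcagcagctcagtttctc
CD53, second listed start, chr1:110872898-110873147, plus strand: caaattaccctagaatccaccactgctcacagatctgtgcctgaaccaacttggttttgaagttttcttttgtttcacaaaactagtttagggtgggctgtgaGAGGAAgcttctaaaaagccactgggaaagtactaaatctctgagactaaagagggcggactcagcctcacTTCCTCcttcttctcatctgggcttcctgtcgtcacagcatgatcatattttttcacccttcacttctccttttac
DOCK2, chr5:169637025-169637274, plus strand: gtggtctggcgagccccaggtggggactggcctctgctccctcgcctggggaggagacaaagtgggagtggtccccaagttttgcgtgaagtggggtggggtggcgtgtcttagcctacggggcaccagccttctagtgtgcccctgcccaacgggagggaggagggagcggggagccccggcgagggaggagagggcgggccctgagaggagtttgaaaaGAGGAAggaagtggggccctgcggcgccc
The CD53 window shown holds the word on the gene's strand starting 147 bases before the start site, and its reverse complement starting 76 bases before it. The window of the first listed CD53 start is not printed and holds the word on neither strand. The DOCK2 window holds it once, 29 bases before the start site. The word lies in 4 of the 12 windows found for the 7 members in the table, 1 window each of CD53, DOCK2, CSF3R and C5AR1. Among all 35116 promoter windows of the same length in the table, 23.57% hold it on either strand. A match describes letters in a window and is not a measurement of binding.

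The unit of level is CPM, a gene's reads after every library has been brought to the same total with TMM factors over the 9 libraries, with a 95% Poisson interval for counting error where 1 library is described. CPM is not divided by gene length, so levels are compared between libraries and not between genes. Reads in genes ranged from 24546255 in W33 to 35477328 in the parental library, and the floor of 3 counts was worth 0.0865 to 0.133 CPM. The mean SRSF2 level was 489.2 ± 27.7 CPM for the WT and 499.1 ± 62.0 CPM for the P95H clones (SD, n = 4 each), with 514.4 CPM in the parental library, and a level per gene does not show the mutation. W33 stood apart, with 17.271% of all genes more than 2-fold from the mean of the other WT clones, against 6.372 to 9.474% for the other WT clones and 9.571 to 13.224% for the P95H clones.

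**Figure D1:**
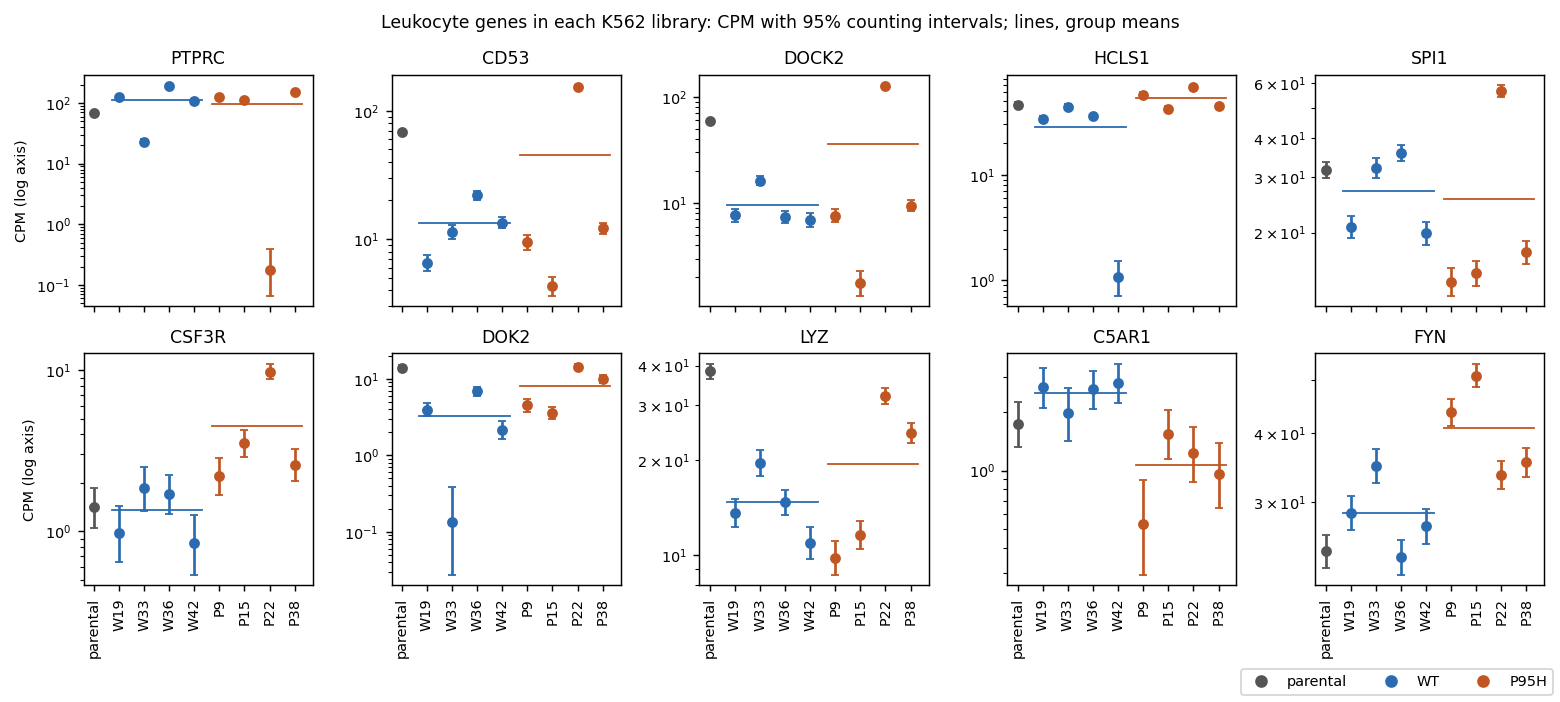
Level of each of the 10 genes in each library in CPM on log axes that differ between panels. Points are single libraries (grey parental, blue WT clones, orange P95H clones), bars are 95% counting intervals and lines are group means. PTPRC drops to 0.1791 CPM in P22 and HCLS1 to 1.067 CPM in W42, while CD53 and DOCK2 peak in P22.

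Among the surface proteins, PTPRC (ENSG00000081237, chromosome 1) was close to absent in 1 P95H clone. Its level was 125.0, 23.1, 193.3 and 106.2 CPM in W19, W33, W36 and W42. In P9, P15, P22 and P38 it was 124.5, 112.6, 0.1791 and 149.5 CPM, and the parental line held 68.7 CPM. P22 was thus far below every other library, W33 was the next lowest, and the 2 genotypes overlapped. P22 held 6 PTPRC reads (0.0657 to 0.390 CPM), and the other P95H clones averaged 719.3 times its level (counting interval 330.5 to 1960). The step from P22 up to W33 was 129.1-fold, and 6 of the 8 neighbouring pairs in the order of levels had counting intervals that did not overlap. In such bulk libraries fewer cells with a transcript and less transcript per cell cannot be told apart. Group means were 111.9 ± 70.0 CPM (SD, n = 4) in WT and 96.7 ± 66.2 CPM (SD, n = 4) in P95H clones, a log2 difference of -0.21 (SE 1.12) that became 0.205 without P22 and 0.19 without W36.

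CD53 (ENSG00000143119, chromosome 1), a tetraspanin that organises receptors in the leukocyte membrane, was high in P22 and in the parental line. Its level was 6.51, 11.3, 21.9 and 13.4 CPM in W19, W33, W36 and W42, and 9.42, 4.29, 154.1 and 12.1 CPM in P9, P15, P22 and P38. The parental library had 68.3 CPM, so P22 and the parental line lay above the other 7 libraries, and P15 was lowest. P22 was 17.9 times the mean of the other P95H clones (log2 difference 4.16, SE 0.57). Through P22 the P95H mean was 45.0 ± 72.8 CPM (SD, n = 4) against 13.3 ± 6.42 CPM (SD, n = 4) in WT clones, and without P22 the log2 difference between genotypes went from 1.78 to -0.63.

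Of the receptors, CSF3R (ENSG00000119535, chromosome 1), which binds the granulocyte growth factor G-CSF, was low and higher in all P95H than in all WT clones. It stood at 0.983, 1.87, 1.70 and 0.846 CPM in W19, W33, W36 and W42. In P9, P15, P22 and P38 it stood at 2.22, 3.52, 9.82 and 2.59 CPM, and the parental line, at 1.41 CPM, lay within the WT range. The genotypes did not overlap, but the highest WT clone (W33) and the lowest P95H clone (P9) had overlapping counting intervals, with 42 and 58 reads. The log2 difference was 1.77 (SE 0.50), and 1.04 without P22.
C5AR1 (ENSG00000197405, chromosome 19), the receptor of the complement fragment C5a, went the other way. It stood at 2.66, 1.96, 2.60 and 2.80 CPM in W19, W33, W36 and W42, and 0.536, 1.54, 1.22 and 0.963 CPM in P9, P15, P22 and P38. The parental level of 1.73 CPM fell between the genotypes, which did not overlap. The log2 difference was -1.21 (SE 0.32). These are 14 to 81 reads a library, and in none of the 8 neighbouring pairs in the order of levels did the counting intervals separate.

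CSF3R and C5AR1 were the members whose genotypes did not overlap, 2 of 10, 1 in each direction. Over all 18173 genes tested in this comparison 8.57% did not overlap. Members were chosen with this contrast in view, so nothing is read from their count. Of the 10 members, 7 had a higher mean in P95H clones. Their median log2 difference was 0.71, against 0.01 over all genes. Without P22 the median was 0.13 with 6 of 10 above 0. Without W33, HCLS1 and FYN also ceased to overlap, which made 4 of 10. Without P22 it was also 4, with SPI1 lower and FYN higher in P95H clones. Smaller groups separate more easily, and no share over all genes was computed with a clone left out. Nothing is read from these counts either.

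The kinase and adaptor members differed in which clone stood out. FYN (ENSG00000010810, chromosome 6), a Src-family tyrosine kinase, had the narrowest range. It stood at 28.7, 35.0, 23.8 and 27.1 CPM in W19, W33, W36 and W42, and at 43.7, 51.0, 33.7 and 35.4 CPM in P9, P15, P22 and P38. The parental level was 24.4 CPM. The genotypes overlapped only in P22 and W33, whose counting intervals overlap too, and the log2 difference was 0.53 (SE 0.17). The highest clone had 2.14 times the level of the lowest.

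HCLS1 (ENSG00000180353, chromosome 3), the HS1 protein that links receptor kinases to cortical actin, was nearly lost in 1 WT clone. Its level was 34.0, 43.7, 35.6 and 1.07 CPM in W19, W33, W36 and W42, and 57.2, 42.3, 67.7 and 44.4 CPM in P9, P15, P22 and P38. The parental line had 46.0 CPM, so W42 alone was low, and the other 8 libraries lay between 34.0 and 67.7 CPM. W42 held 29 reads. The other WT clones averaged 35.4 times its level (log2 difference of W42 from them -5.14, SE 0.42). The 31.9-fold step from W42 to W19 was the widest in the order of levels.

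DOK2 (ENSG00000147443, chromosome 8), an adaptor that dampens tyrosine kinase signalling in myeloid cells and is phosphorylated by BCR-ABL, was nearly absent in W33. Levels were 3.97, 0.1334, 6.93 and 2.17 CPM in W19, W33, W36 and W42. They were 4.52, 3.61, 14.3 and 10.03 CPM in P9, P15, P22 and P38, and 13.8 CPM in the parental line. W33 held 3 reads, a ratio of 32.6 between the other WT clones and W33 (counting interval 11.2 to 158). P22 and the parental line were highest and had overlapping counting intervals.

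DOCK2 (ENSG00000134516, chromosome 5), which activates the GTPase Rac in migrating leukocytes, was, like CD53, high in P22 and in the parental line. It stood at 7.64, 16.3, 7.44 and 6.95 CPM in W19, W33, W36 and W42, and 7.62, 1.76, 125.3 and 9.40 CPM in P9, P15, P22 and P38. The parental library had 58.9 CPM, again second to P22, and P15 was again lowest. P22 was 20.01 times the mean of the other P95H clones (log2 difference 4.33, SE 0.68). Without P22 the log2 difference between genotypes went from 1.94 to -0.62.

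SPI1 (ENSG00000066336, chromosome 11) was expressed in every library. PU.1 RNA stood at 20.9, 32.2, 36.04 and 19.9 CPM in W19, W33, W36 and W42. In P9, P15, P22 and P38 it stood at 13.9, 14.8, 56.6 and 17.3 CPM, and the parental line had 31.8 CPM. P22 was above every other library, and the other 3 P95H clones were below every WT clone. P22 was 3.69 times the mean of the other P95H clones (log2 difference 1.89, SE 0.32). The means were 27.3 ± 8.08 CPM (SD, n = 4) in WT and 25.7 ± 20.7 CPM (SD, n = 4) in P95H clones, and leaving out P22 moved the log2 difference between genotypes from -0.07 to -0.83, while leaving out P9, P15, P38, W33 or W36 gave 0.01 to 0.12.

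LYZ (ENSG00000090382, chromosome 12), the lysozyme of phagocyte granules, was highest in the parental line. Levels were 13.6, 19.6, 14.7 and 10.9 CPM in W19, W33, W36 and W42, and 9.80, 11.6, 32.0 and 24.4 CPM in P9, P15, P22 and P38. The parental library, at 38.4 CPM, was above all 8 clones, and P22 and P38 were the highest clones. In the annotation 33.96% of the exon bases of LYZ overlap an antisense gene, ENSG00000257764, which had 4.40 CPM in P9 and 17.7 CPM in the parental line. The kit named does not mark strand, and the counter's strand and overlap settings are not stated. How reads in the shared bases were assigned is therefore unknown, and the LYZ level is uncertain.

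**Figure D2:**
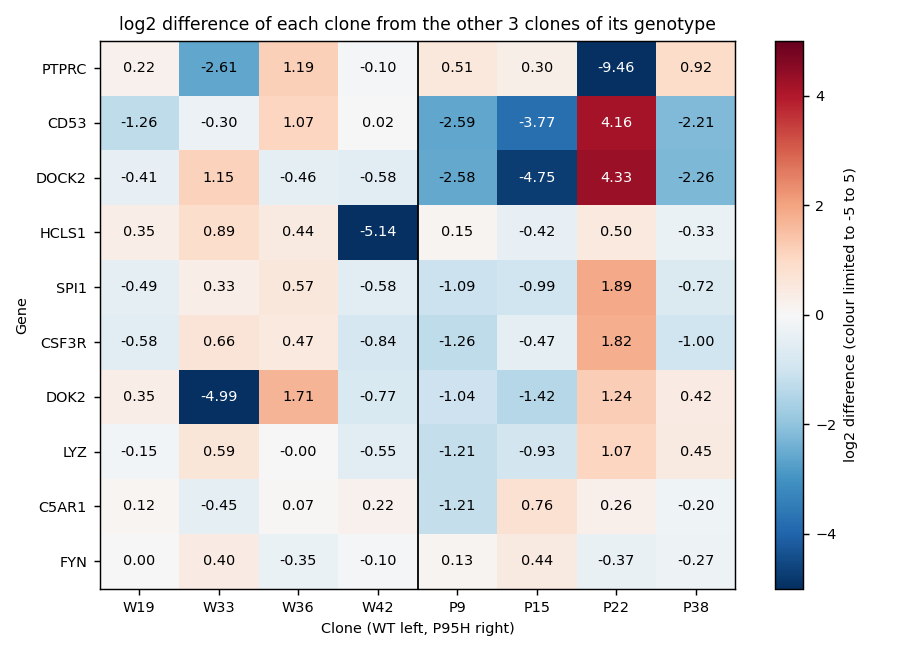
log2 difference of each gene (rows) in each clone (columns) from the mean of the other 3 clones of its genotype, as fitted by edgeR. Red is higher, blue is lower, and colour is limited to -5 to 5. The deep cells are PTPRC in P22 (-9.46), HCLS1 in W42 (-5.14) and DOK2 in W33 (-4.99), and the blue cells of P9, P15 and P38 for CD53 and DOCK2 are set against a mean that includes P22.

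Set side by side, the members gave each clone its own pattern. In P22, 6 members were more than 2-fold above the mean of the other P95H clones (CD53, DOCK2, SPI1, CSF3R, DOK2 and LYZ) and PTPRC was below. In W33, DOCK2 was more than 2-fold above and PTPRC and DOK2 below the other WT clones. W36 had 3 members above (PTPRC, CD53 and DOK2), while CD53 in W19 and HCLS1 in W42 were each the single member below. In P9, P15 and P38 there were 7, 3 and 3 members more than 2-fold below, each set against a mean that includes P22. Without P22, CD53 and DOCK2 differed by 0.19 and 0.44 in P9 and by 0.84 and 1.02 in P38, and both were still lower in P15 (-1.32 and -2.27). edgeR's test over all genes called PTPRC, CD53, DOCK2 and SPI1 in P22, and HCLS1 in W42. The test called 0.426% of all genes in P22 and 0.0194% in W42. It called 10.9% of genes in W33, where no member passed, 0.00485% in P15, and 0% in W19, W36, P9 and P38. As members were picked for these differences, the calls are printed only as a description.

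**Figure D3:**
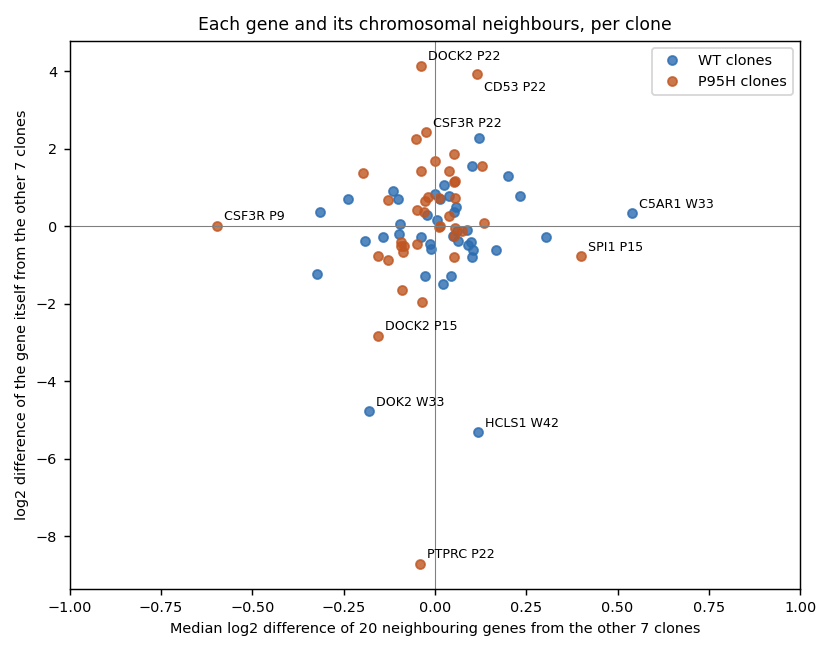
For each of the 10 genes and each of the 8 clones, the log2 difference of the gene itself from the other 7 clones (y) against the median log2 difference of the 20 nearest genes on its chromosome (x). The loss of PTPRC in P22 (-8.71) and of HCLS1 in W42 (-5.32) sits near 0 on the x axis. So does the gain of DOCK2 and CD53 in P22. Neighbours of CSF3R in P9 and SPI1 in P15 had medians of -0.60 and 0.40. The genes themselves differed by 0.01 and -0.77 from the same 7 clones, though CSF3R in P9 was below the other P95H clones.

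The large single-clone differences were not shared by genes next to the members. For each member the 10 nearest genes on either side that averaged 5 CPM or more were compared between a clone and the other 7. PTPRC in P22 differed by -8.71 on the log2 scale, and its 20 neighbours had a median of -0.04. HCLS1 in W42 differed by -5.32 and its neighbours by 0.12. DOK2 in W33 differed by -4.78 and its neighbours by -0.18. In P22, DOCK2 and CD53 differed by 4.15 and 3.92 and their neighbours by -0.04 and 0.12. The genes with such a level closest to PTPRC, NEK7 and ZNF281, stood at 24.4 and 32.0 CPM in P22, beside lowest values of 26.7 and 33.4 CPM in the other P95H clones.
In other cases the neighbours of a member shifted in a clone. The 20 neighbours of CSF3R in P9 had a median of -0.60 and 0 of 20 were above 0. CSF3R differed by 0.01 from the other 7 clones, which mix the genotypes. Against the other P95H clones it differed by -1.26, and by -0.47 without P22. The 20 neighbours of SPI1 in P15 had a median of 0.40 with 19 of 20 above 0, whereas SPI1 differed by -0.77. In W33 the neighbours of C5AR1 had a median of 0.54 with 18 of 20 above 0, and C5AR1 differed by 0.34. Those of LYZ in W33 had a median of -0.32 with 4 of 20 above 0, while LYZ differed by 0.36. Copy number was not measured, and its part in these values was not tested.

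Against the 4 WT clones, the parental line gave a further comparison. Members were chosen for switching between clones, and the WT clones are the baseline here, so the values of members are descriptions here too. The comparison asks how far the clones lie from the line they came from. Of the 10 members 7 had a fitted level above the WT clones, with a median log2 difference of 0.45 against -0.02 for all genes. edgeR called 0 of 10, each with an adjusted p of 1.0, and it called 0.00485% of all 20636 genes tested. At an unadjusted p under 0.05 there was 1 member, LYZ (log2 difference 1.39, SE 0.53), and 1.72% of all genes. The fitted differences were 2.63 (SE 1.46) for DOCK2, 2.36 (SE 1.39) for CD53 and 2.05 (SE 1.10) for DOK2, which was 2.70 without W36. With 1 parental library the spread was taken from the clones.

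Around the members, 242 other leukocyte genes in 9 lists were examined, covering kinase signalling around CD45, receptor adaptors, Rac and actin regulators, tetraspanins, pan-leukocyte genes, myeloid transcription factors, phagocyte genes, cytokine and chemoattractant receptors, and lymphoid markers. Between genotypes edgeR called 0 of the 151 tested and 0% of all genes, and its smallest adjusted p for any gene was 0.128. At an unadjusted p under 0.05 there were 25 list genes among 2130 of all genes. DESeq2 called 4 list genes (TSPAN32, CD82, DOCK8 and GAB1) and 1.59% of all genes, and limma-voom 0 list genes and 0.325% of all genes. TSPAN32, a tetraspanin of blood cells, stood at 6.98 ± 2.14 CPM (SD, n = 4) in WT and 29.1 ± 18.3 CPM (SD, n = 4) in P95H clones, with no overlap (edgeR log2 difference 2.08, SE 0.44, adjusted p = 0.282). GAB1, a docking protein for growth factor receptors, stood at 4.01 ± 0.45 and 8.15 ± 2.83 CPM (SD, n = 4 each), also with no overlap (edgeR adjusted p = 0.286). DOCK8, a relative of DOCK2 that activates Cdc42, stood at 17.7 ± 10.1 and 49.9 ± 21.1 CPM, with W42 at 32.2 CPM above P38 at 30.0 CPM. CD82, another tetraspanin, stood at 2.41 ± 0.32 and 4.62 ± 1.43 CPM. Its groups did not overlap, but the highest WT clone (W33, 2.80 CPM) and the lowest P95H clone (P38, 2.92 CPM) were close.

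The pan-leukocyte list, 15 of 22 genes tested between genotypes, had a median log2 difference of 0.86 with 12 of 15 above 0, and 0 passed edgeR's test. Without P22 the median was 0.32 with 8 of 15 above 0. In P22 alone, set against the other P95H clones, 16 of 17 were above 0 with a median of 1.51. The tetraspanins, with 9 of 19 above 0, had a median of -0.07. The phagocyte and granule genes had a median of -0.11 with 7 of 16 above 0. IKZF1, a lymphoid and myeloid transcription factor, stood at 50.3 ± 5.80 CPM in WT and 66.5 ± 8.71 CPM in P95H clones with no overlap, and EGR1, an early response factor, at 147.6 ± 50.5 and 70.9 ± 28.1 CPM. Neither passed edgeR's test (adjusted p = 0.334 and 0.338).

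In P22, KIT and 4 other list genes rose and TSPAN13 fell. edgeR called 5 of 169 tested list genes higher and 1 lower, 3.55% against 0.426% of all genes, and the share called higher was 2.96% against 0.32%. KIT, the receptor of stem cell factor, stood at 35.9 CPM in P22, whereas P9, P15 and P38 held 0.432 to 1.53 CPM (log2 difference 5.12, SE 0.69, edgeR adjusted p = 0.0240). ITGB2, the beta chain of leukocyte integrins, stood at 11.2 against 0.432 to 0.649 CPM (adjusted p = 0.00630). CORO1A, an actin-binding coronin of leukocytes, stood at 31.1 against 1.70 to 4.08 CPM (adjusted p = 0.0313). LAPTM5, a lysosomal membrane protein of blood cells, stood at 119.7 against 11.3 to 29.3 CPM (adjusted p = 0.0313). FCGR2B, an inhibitory receptor for antibody, stood at 8.93 against 0.531 to 0.834 CPM (adjusted p = 0.0208). TSPAN13, a tetraspanin, was the gene called lower, at 19.3 against 73.5 to 81.4 CPM (adjusted p = 0.00996).
P22 is 1 library, and its calls depend on the clones it is set against. Without P9 or without P15, ITGB2 and TSPAN13 were the list genes still called. Without W33 there were 13, among them 5 of the first 6 (all but LAPTM5). Lists and the P22 comparison were both chosen with these data known.

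Levels of erythroid markers are given beside these values. The summed level of 15 K562 erythroid markers was 2920 CPM in P22, the lowest library, with 5942 to 8660 CPM in P9, P15 and P38, 3403 to 5569 CPM among WT clones and 3831 CPM in the parental line. Against the mean of the other P95H clones, the 15 had a median log2 difference of -1.84 in P22, with 0 of the 15 above 0. Against single clones this did not hold for every marker, as ALAS2 stood at 137.2 CPM in P22 and 112.6 CPM in P38. The phagocyte list summed to 462.2 CPM in P22, and P9, P15 and P38 gave 281.5 to 355.3 CPM. It was highest in W33 at 493.9 CPM, and the other WT clones gave 346.1 to 381.2 CPM and the parental line 390.7 CPM. A few genes carry this sum: CYBA gave 198.3 CPM and CST3 91.4 CPM of it in W33. Of the 36 genes 13 averaged 1 CPM or more. CTSG, S100A12 and FCN1 had 0 counts in every library, and MPO, ELANE and S100A8 stayed under 0.5 CPM. The lymphoid markers summed to 15.8 to 45.5 CPM over the 9 libraries, with CD8B, MS4A1, KLRD1 and CD28 at 0 counts. Fibroblast and epithelial markers summed to 483.8 to 1375 CPM with LUM, PDGFRA and KRT5 at 0 counts, and KRT8, which is expressed in K562, gave 195.1 to 756.3 CPM of that. Their part in the differences of the members was not tested.

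**Figure D4:**
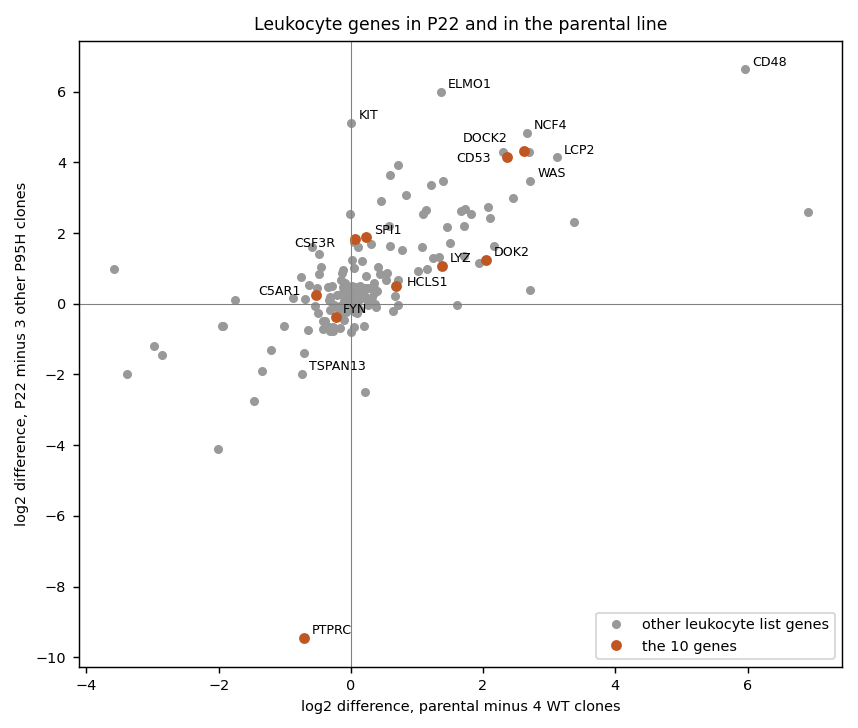
log2 difference of P22 from the other 3 P95H clones (y) against the log2 difference of the parental line from the 4 WT clones (x), for the 10 genes (orange) and 169 other leukocyte list genes (grey). CD53, DOCK2, DOK2 and LYZ lie above 1 on both axes, SPI1 and CSF3R on the y axis alone, and PTPRC lies far down in P22 (-9.46) but at -0.71 in the parental line.

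The parental line and P22 were high in many of the same leukocyte genes. Members and lists were chosen with these data known, so the shares below are descriptions and carry no test. The P22 and parental comparisons set no library in common side by side, but both come from fits of all 9 libraries. Among the members CD53, DOCK2, DOK2 and LYZ were above 1 on the log2 scale in both, 4 of the 6 above 1 in P22 and 4 of the 4 in the parental line. Among the 169 list genes 47 were above 1 in P22 (27.81%, against 5.45% of all genes) and 32 in the parental line (18.93%, against 2.96%). The genes above 1 in both numbered 28, which is 59.57% of the P22 genes and 87.5% of the parental genes. Over all genes 300 were above 1 in both, 26.67% and 49.1% of each. With a mean of 1 CPM or more required, 19 list genes were above 1 in both, 59.38% of the P22 genes and 86.36% of the parental genes. The same shares over all genes were then 23.22% and 63.64%, from 98 genes. Of the 28, edgeR called CORO1A, ITGB2 and LAPTM5 in P22, and it called 0 list genes in the parental comparison, where 9 of 169 had an unadjusted p under 0.05.
WAS, the Wiskott-Aldrich actin regulator, stood at 55.4 CPM in the parental line, 70.0 CPM in P22, 3.02 to 11.6 CPM across WT clones and 1.08 to 14.6 CPM across P9, P15 and P38. LCP2, the adaptor SLP-76, stood at 9.20, 24.4, 0.655 to 1.38 and 0.0309 to 3.99 CPM in the same order. CD44, an adhesion receptor, stood at 40.1 CPM in P22 and was next highest in the parental line, while WT clones reached 9.79 CPM and the other P95H clones 12.3 CPM. INPP5D, the lipid phosphatase SHIP1, stood at 18.3 CPM in the parental line and 28.7 CPM in P22, with 9.81 CPM the highest WT and 6.97 CPM the next highest P95H clone. In all 4 of these genes the parental line and P22 lay above the other 7 libraries. KIT was high in P22 and not in the parental line (2.97 CPM).

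**Figure D5:**
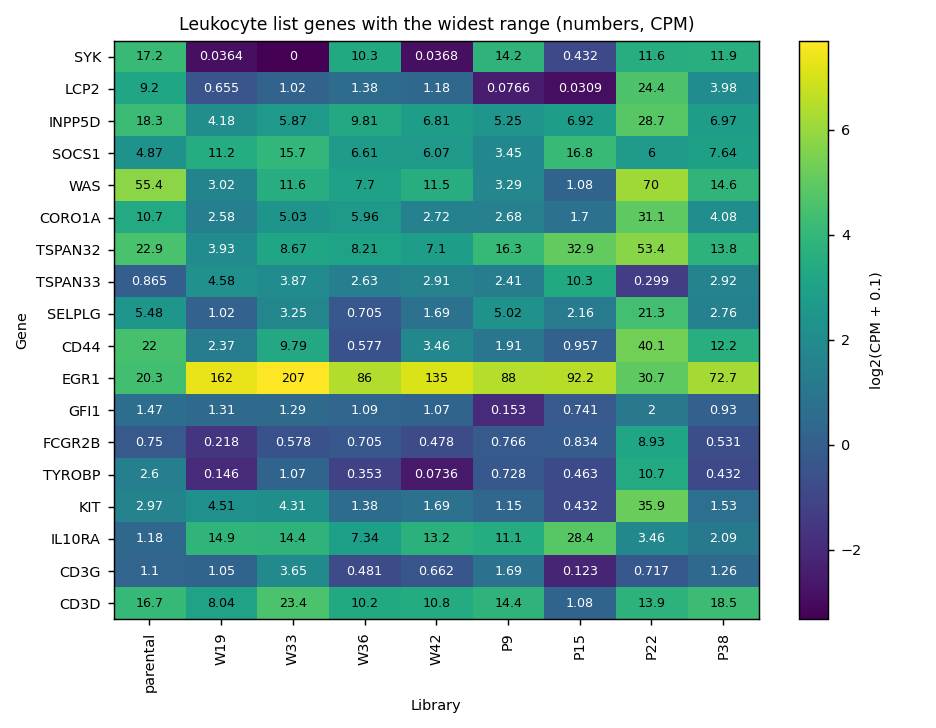
Level of the leukocyte list genes with the widest range, in CPM, printed in each cell and coloured by log2(CPM + 0.1), for the 9 libraries. SYK is near 0 in W19, W33 and W42, while WAS, CD44 and LCP2 are highest in P22 and then in the parental line.

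SYK, a kinase that acts beside FYN in immune receptor signalling, had on-or-off values like those of PTPRC and HCLS1. It stood at 17.2 CPM in the parental line, 10.3 CPM in W36, 14.2 CPM in P9, 11.6 CPM in P22 and 11.9 CPM in P38. W33 had 0 reads, W19 and W42 were at 0.0364 and 0.0368 CPM, below the floor of 3 counts, and P15 was at 0.432 CPM. The gene was therefore detected in the parental line and in 5 of the 8 clones, and the 3 clones below the floor were WT clones, while W36 lay with P9, P22 and P38.

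In W33 edgeR called 8 of 169 list genes, or 4.73%, beside 10.9% of all genes. ELMO3, EVL, TSPAN31 and CSK were among those called higher, and GRB2, IFNGR1 and CRK among those called lower. CSK, the kinase that places the inhibitory phosphate on FYN, stood at 94.8 CPM in W33 and ranged over 65.5 to 69.2 CPM in W19, W36 and W42 (log2 difference 0.51, SE 0.12, edgeR adjusted p = 0.0332). GRB2, an adaptor of receptor kinases, stood at 48.1 against 79.0 to 90.7 CPM (adjusted p = 0.0214). Among 12 erythroid and megakaryocytic transcription factors tested, GATA1, LYL1, KLF1 and NFE2 were called higher. Without W36 or without W42 there were 0 calls in W33.

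Genes whose log2 levels ran most like a member over the 9 libraries were sought among 15141 named genes that averaged 1 CPM or more, as a description with no test, since all points share libraries and P22. PTPRC was closest to SOX5 (Pearson r = 0.984), FOXO4 (0.977) and RHAG (0.975), all lowest in P22. CD53 was closest to TNFRSF8 (0.975), CORO1A (0.966) and ZNF333 (0.949), all highest in P22 and lowest in P15. HCLS1 was closest to LINC01524 (0.968), MAGED1 (0.967) and ADGRA3 (0.963), all lowest in W42. MAGED1 ranged from 1.69 CPM in W42 to 64.8 CPM in W33. DOCK2 and SPI1 shared MAP3K14, a kinase of the NF-kappaB pathway (r = 0.953 and 0.921), which was highest in P22 at 26.8 CPM. FYN was closest to A2ML1 (0.983), C5AR1 to PDE4C (0.981) and CSF3R to ACCS (0.960), while the gene closest to LYZ was its antisense partner (0.973). Among the members CD53 and DOCK2 had r = 0.929 over the 9 libraries and 0.859 without P22. The second value still includes the parental line, which was above every clone but P22 in both genes. Among WT clones the order differed, with W36 highest in CD53 (21.9 CPM) and W33 highest in DOCK2 (16.3 CPM). PTPRC and CSF3R had r = -0.756 and, without P22, 0.04, so that value rests on P22.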

How the data were processed

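RNA was measured in 9 K562 libraries: the parental line, 4 WT and 4 P95H clones, grouped by sample title. The protocols in the labels name a miRNeasy kit, poly(A) selection, a TruSeq kit and a HiSeq2000. The deposited values are raw counts of reads in each gene of Ensembl 75. Tools named in the submitters' processing notes are bcl2fastq, TopHat2 2.0.4 and HTSeq 0.6.1p1, and the build is GRCh37. The counter's strand and overlap settings are not stated there. The summary lines of each list were left out of library sizes, and 43.252 to 44.238% of the reads listed fell in genes.

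Members were matched by gene ID. Symbols, chromosomes, gene order and exon overlap came from GENCODE 29 (GRCh38), a later build than that of the counts, so its coordinates are not printed. Promoter windows came from RefSeq on GRCh38.p14, and 7 of 10 members were in that table.

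P95H against WT clones was tested with edgeR 4.0.16 in R 4.3.3 (filterByExpr, TMM scaling, robust quasi-likelihood F test, Benjamini-Hochberg adjustment over all genes, threshold 0.05). The parental library and each clone were set against other clones in models of all 9 libraries, where the spread of a single library is borrowed from the clones. log2 CPM used a prior count of 2. p-values measure the spread between clones, each 1 library. The steps were tested on simulated data. Alternatives were RLE scaling, no filter, at least 1 CPM in 4 libraries, DESeq2 1.42.0, limma-voom (limma 3.58.1) and each clone left out. Leaving W33 out of the single P95H clone comparisons, and the alternatives for single-clone values, were chosen after seeing the data.

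The members and the 13 gene lists were chosen with earlier results of these data known. Named besides the members are, from each list with a mean of at least 1 CPM, the 2 genes with the smallest p between genotypes and the 2 with the widest range, plus the 3 genes most like each member. List genes called in a single clone, and ones high in both P22 and the parental line, were named after their values were seen.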

Additional observations from a re-analysis of the deposited data

Results flagged for a closer look

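In each group of 4 clones, the highest and lowest log2 CPM of the members and of the named list genes were compared with the nearest clone. A clone is given here where that gap, divided by the group's range, passed Dixon's 95% critical value for 4 samples. Chance flags about 1 in 20 groups, and 13 of 110 groups (11.82%) passed. The members and many of the list genes were chosen for wide ranges, so this share says nothing more.

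Among the members PTPRC in P22 (0.1791 CPM, against 112.6 to 149.5 CPM), HCLS1 in W42 (1.067 CPM, against 34.0 to 43.7 CPM), SPI1 in P22 (56.64 CPM, against 13.9 to 17.3 CPM) and DOCK2 in W33 (16.28 CPM, against 6.95 to 7.64 CPM) passed. Among list genes in P22, INPP5D (28.66 CPM), FCGR2B (8.927 CPM), TYROBP (10.69 CPM) and IL6ST (27.05 CPM) were high. SYK was high in W36 (10.26 CPM) and low in P15 (0.4324 CPM). IL10RA in W36 (7.342 CPM), IL16 in P38 (1.362 CPM) and CD3D in P15 (1.081 CPM) were low in their groups.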

How the results depend on the processing

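The labels give the genotypes no shared replicate numbers. No paired analysis was possible because the WT and P95H clones carry different numbers. Of the counts recomputed, 103 stayed within 1.5 times the reported count and 34 did not. Between genotypes the 0 genes called by edgeR became 261 with DESeq2, 59 with limma-voom, 2 with no filter and 0 to 1 with a clone left out, and the 0 list genes became 4 with DESeq2. The parental comparison called 1 gene, 5 with no filter and 0 to 1 with a WT clone left out. With no filter the calls were 1 in W19, 25 in P15 (1 list gene), 249 in P22 (13 list genes) and 1 in P38. With another clone left out W33 went from 2246 calls to between 0 and 527 (list genes 0 to 2), W42 from 4 to between 2 and 3, and P9 from 0 to between 0 and 1. P15 went from 1 to between 1 and 7 (list genes 0 to 1), and P22 from 88 to between 31 and 254 (list genes 2 to 13), the upper ends being those without W33. Members with no overlap between genotypes numbered 2 to 4, with no share over all genes computed where a clone was left out. Between genotypes the sign of CD53 and DOCK2 turned without P22, that of PTPRC without P22 or W36, and that of SPI1, which was near 0, without any of 5 clones. The cause of these moves was not tested, apart from fewer clones or more genes entering a fit. Depth limits C5AR1 and CSF3R, which had 14 to 81 and 23 to 329 reads a library.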

Other observations

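Several list genes were lower in both P22 and the parental line. TSPAN33, a tetraspanin of red cell precursors, stood at 0.299 CPM in P22 and 0.865 CPM in the parental line, while WT clones ranged over 2.63 to 4.59 CPM and P9, P15 and P38 over 2.41 to 10.3 CPM. EGR1 stood at 30.7 CPM in P22 and 20.3 CPM in the parental line, against 86.0 to 206.6 and 72.7 to 92.2 CPM. IL10RA, the receptor of interleukin 10, stood at 1.18 CPM in the parental line and 3.46 CPM in P22, against 7.34 to 14.9 CPM in WT clones. Among the other P95H clones, P38 was below P22 at 2.09 CPM, and P9 and P15 were above it at 11.07 and 28.35 CPM. These genes were picked after their values were seen and carry no test here.

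P15 differed from the other P95H clones in another set. CD3D and CD3G, chains of the T cell receptor complex that were detected in every library, stood at 1.08 and 0.124 CPM in P15, whereas P9, P22 and P38 held 13.9 to 18.5 and 0.717 to 1.69 CPM. DOCK2 (1.76 CPM), CD53 (4.29 CPM), WAS (1.08 CPM) and CORO1A (1.70 CPM) were all lowest in P15. WAS and CORO1A were also low in P9 (3.29 and 2.68 CPM) and in W19 (3.02 and 2.58 CPM). LCP2 was below the floor of 3 counts in both P15 (0.0309 CPM) and P9 (0.0766 CPM), which cannot be ranked. ALAS2, the first enzyme of haem synthesis in red cells, was highest in P15 at 726.1 CPM, beside 112.6 to 190.1 CPM in P9, P22 and P38 and 17.7 to 131.3 CPM in WT clones.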
